A study of Mus musculus with 4 samples.

Results

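The expression of 75 mitochondrial ribosomal protein genes was compared in the salivary glands of mice that lack or carry Nfkbiz, the gene of the nuclear NF-κB regulator IκB-ζ. The members were all genes on the array whose symbol begins with Mrpl or Mrps and a number, 75 of 21904 gene symbols, of which 47 name the large (Mrpl) and 28 the small (Mrps) subunit. Each was read by 1 transcript cluster of 10 probes, and every one of the 75 lay at its RefSeq gene. RNA came from parotid, submandibular and sublingual glands pooled within a mouse from 20-week-old mice kept in cages of their own genotype, with 1 array for each of 2 Nfkbiz-/- mice, named M47 and M49, and 2 Nfkbiz+/+ mice, named M30 and M55. The paper describes only females, from Nfkbiz+/- mice of a mixed 129/Ola and C57BL/6 background, and states that part of the glands went to histology and the rest to RNA, whereas the label of M47 names the strain ICR and the other 3 labels name none.

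Mitochondria keep their own ribosome, which translates the few messages of the mitochondrial genome, all of them for subunits of the respiratory chain and ATP synthase. Its ribosomal RNAs are encoded in the mitochondrion, but every protein is encoded in the nucleus, made in the cytosol and imported. Part of these proteins descend from the bacterial ribosome, and the rest were added in the mitochondrial lineage. In secretory glands these organelles supply the ATP that fluid and protein secretion consume.

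The mitochondrial ribosomal protein genes lay mostly lower in the Nfkbiz-/- glands. A gene was called when limma, fitted over all 22206 clusters, gave an unadjusted p under 0.05 with a fold change of at least 1.5, the thresholds of the study. By that rule 14 of the 75 genes (18.7%) were called lower and 0 higher, where the table as a whole had 3.69% of clusters called lower and 2.93% called higher. The median log2 difference, Nfkbiz-/- minus Nfkbiz+/+, was -0.28 over the 75 genes and -0.02 over all clusters, and 65 of the 75 genes lay below 0 (86.7%, against 53.1% of all clusters). None of the 75 genes passed Benjamini-Hochberg adjustment over all clusters: the lowest adjusted p among the 75 was 0.468, and 19 of them had an unadjusted p under 0.05. With 2 mice per genotype the smallest p of an exact permutation test is 0.333.

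**Figure D1:**
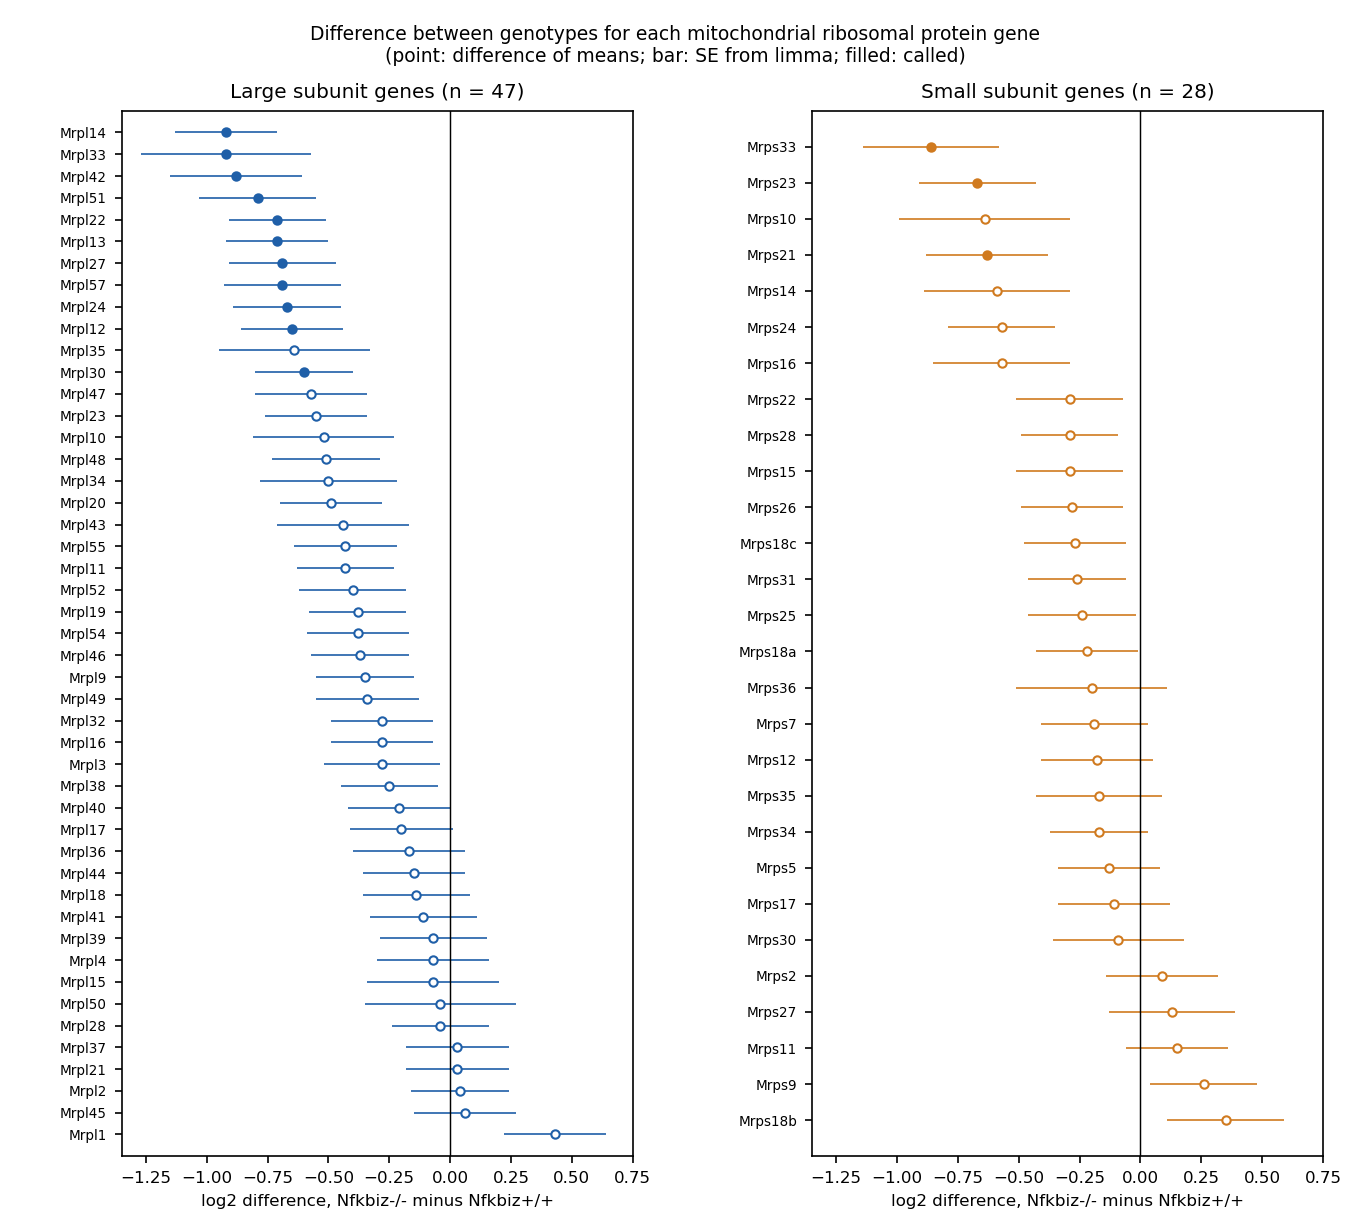
Log2 difference between genotypes (Nfkbiz-/- minus Nfkbiz+/+, horizontal axis) for each of the 47 large and 28 small subunit genes, with the SE from limma as a bar and called genes filled. Differences ran from -0.92 (Mrpl14) to 0.43 (Mrpl1) in the large subunit and from -0.86 (Mrps33) to 0.35 (Mrps18b) in the small one, and the 14 filled points all lie below 0.

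In bulk tissue, fewer cells of a type and less RNA per cell cannot be told apart. The array of M55 carried far more signal of muscle and fat than the other 3: the summed log2 level of 5 skeletal muscle genes was 8.02 in M55 and 5.97 to 6.08 elsewhere, that of 4 white fat genes 8.82 against 6.07 to 6.36, and that of the brown fat genes Ucp1 and Cidea 8.06 against 4.95 to 5.23. Genes of red blood cells ran with genotype instead, at 7.38 and 8.98 in the Nfkbiz-/- mice and 11.99 and 11.26 in the Nfkbiz+/+ mice. The acinar genes, 4 of 6 measured, summed to 13.96 in M55 and to 14.54 to 14.60 in the other mice. They did not move together. The amylase gene Amy1 read 10.93 in M55 against 12.87 to 12.94, and Bpifa2 12.84 against 13.26 to 13.32. Smgc hardly differed, at 12.49 in M55 against 12.52 to 12.56. Aqp5 was highest in M55, at 9.77 against 9.1 to 9.57. Genes of the granular ducts ran from 13.29 to 13.73, and those of T and B cells from 7.60 to 10.32 in the Nfkbiz-/- mice and from 6.09 to 9.01 in the Nfkbiz+/+ mice. The part of these cells in the differences below was not tested. Because of the muscle and fat signal, main results are given without M55 as well. Leaving out M55 does not remove the red blood cell signal, which was highest in M30. Nfkbiz itself read 6.18 and 5.78 in M47 and M49 against 5.04 and 7.29 in M30 and M55. Its 10 probes were summarized over the whole gene, and the sources used here do not say which of them lie in the deleted part, so this value does not check the genotype labels.

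Among the large subunit genes, 11 of 47 were called lower. The gene with the lowest p was Mrpl14, whose bacterial counterpart sits where the 2 subunits meet, and which in human mitochondria also holds the assembly factor MALSU1. Mrpl14 (chromosome 17, 45686322 to 45698495, plus strand, in the deposited annotation) read 4.26 and 4.46 in M47 and M49 against 5.30 and 5.27 in M30 and M55 on the log2 scale. The 2 genotypes lay well apart and the Nfkbiz+/+ mice nearly coincided. The difference was -0.92 (SE 0.21), or 52.7% of the Nfkbiz+/+ level, with an adjusted p of 0.468 in limma. Mrpl14 was the only gene of the 14 to stay called whichever of the 4 mice was left out.

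A further 4 large subunit genes were still called when M55 was left out. Mrpl22, a homologue of a bacterial protein that lines the exit tunnel of the growing chain, read 3.31 and 3.34 in M47 and M49 against 4.03 and 4.04 in M30 and M55 (difference -0.71, SE 0.20). Its signal was low, and in the Nfkbiz-/- mice it lay below 3.49, the lower quartile of all values. Mrpl13, whose bacterial homologue joins the ribosome early in assembly, read 4.49, 4.44, 5.27 and 5.08 in the same order of mice. Mrpl27, homologous to the bacterial protein that reaches the peptidyl transferase centre, read 5.81, 5.52, 6.29 and 6.42. Mrpl30, the counterpart of bacterial L30, read 5.30, 5.32, 5.97 and 5.85. Their differences were -0.71, -0.69 and -0.60. In Mrpl13 and Mrpl30, as in Mrpl14, it was M30 and not M55 that was highest. The methods' t-test, run instead of limma, called these 4 and Mrpl14 with equal variances (5 of 75, against 1.12% of clusters) and Mrpl22 alone with unequal variances (0.473% of clusters). Rescaling cost only the call of Mrpl30, after quantile normalization (3.4% of clusters called lower) as after median centring (3.38%), and at a fold of at least 2 none of the 75 was called (0.315%).

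The other 6 called genes of the large subunit were no longer called without M55, the mouse in which each was highest. Mrpl33, a short protein with a bacterial homologue, read 6.16 and 6.39 in M47 and M49 against 6.63 and 7.75 in M30 and M55, so that its 2 Nfkbiz+/+ mice stood farther apart than the genotype means did. Its difference of -0.92 (SE 0.35) was -0.36 against M30 alone. Mrpl42, which bacteria lack, read 6.69, 6.49, 7.12 and 7.82 in the same order of mice. Mrpl51, also added in the mitochondrial lineage, read 6.07, 6.03, 6.60 and 7.09. Both kept the Nfkbiz-/- mice below both Nfkbiz+/+ mice, at -0.88 and -0.79. Mrpl57, a further mitochondrial addition known earlier as Mrp63, differed by -0.69. Mrpl24, next to the exit tunnel in bacteria, differed by -0.67. Mrpl12, the homologue of the bacterial L7/L12 stalk protein and a binding partner of the mitochondrial RNA polymerase, differed by -0.65, with 6.38, 6.32, 6.85 and 7.16 in M47, M49, M30 and M55.

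**Figure D2:**
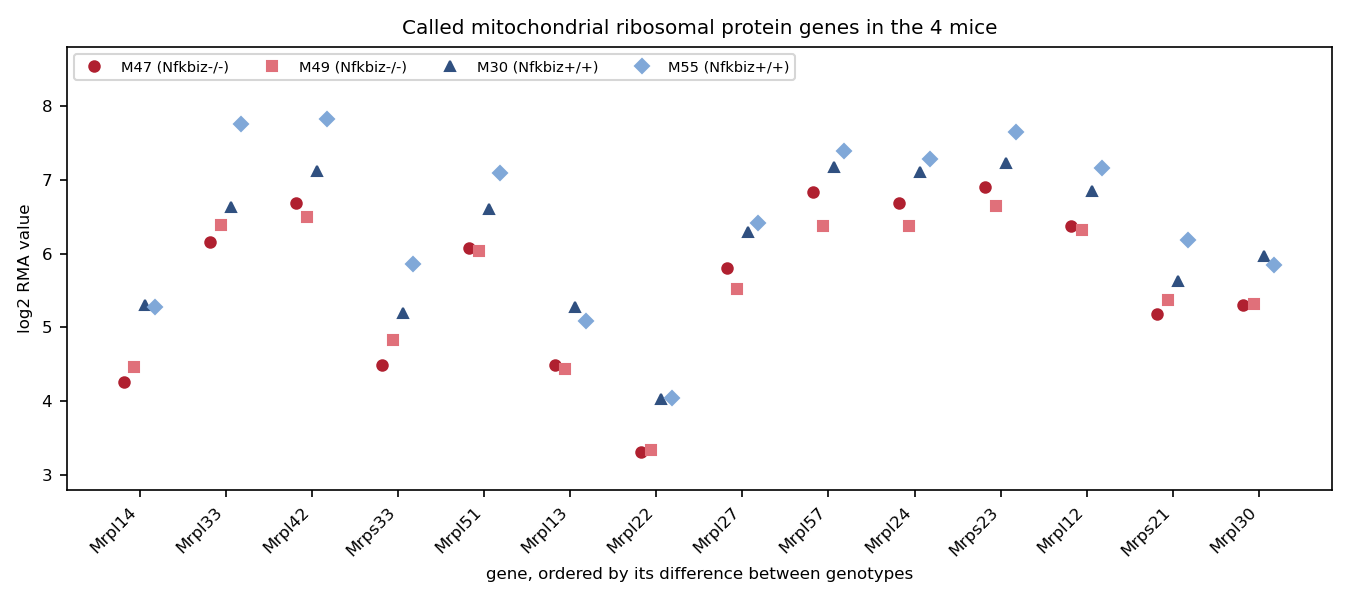
Log2 RMA value (vertical axis) of each of the 14 called genes in the 4 mice, with the genes ordered by their difference. In every gene M47 and M49 lie below M30 and M55, and M55 is the highest in 11 of the 14. The genes were called on these same values, which favours such a separation of the genotypes.

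Of the 28 small subunit genes 3 were called lower, and M55 was the highest mouse in each. Mrps33, a protein without a bacterial counterpart, read 4.49 and 4.83 in M47 and M49 against 5.19 and 5.86 in M30 and M55, a difference of -0.86 (SE 0.28). Mrps23, likewise added in mitochondria, read 6.90, 6.64, 7.23 and 7.65 (difference -0.67). Mrps21, homologous to bacterial S21, read 5.18, 5.37, 5.63 and 6.18 (difference -0.63). The groups did not overlap in any of the 3, but none of them stayed called when M55 was left out. In that setting a single small subunit gene was called, Mrps24, which read 4.70, 4.42, 5.23 and 5.02 in M47, M49, M30 and M55. Mrps10, with the third lowest difference of the small subunit (-0.64), did not pass the p threshold (SE 0.35). M49 at 5.80 stood above M30 at 5.69, and only M55, at 6.69, was clear of the Nfkbiz-/- mice.

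Large and small subunit genes leaned the same way. The median difference was -0.38 over the 47 large subunit genes and -0.23 over the 28 small subunit genes, and 42 and 23 of them lay below 0. Both Nfkbiz-/- mice were below both Nfkbiz+/+ mice in 32 large and 14 small subunit genes, together 46 of 75 (61.3%, against 21.5% of all clusters). The opposite order held in 5 genes (6.67%, against 18.2% of all clusters). The subunits' medians differed by -0.15, for which genes are no replicates and no test was made, and that gap moved between -0.20 and -0.10 as single mice were left out. Within the large subunit the median was -0.43 for the 30 genes with a homologue in bacteria and -0.34 for the 17 others, and -0.36 and -0.29 without M55.

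**Figure D3:**
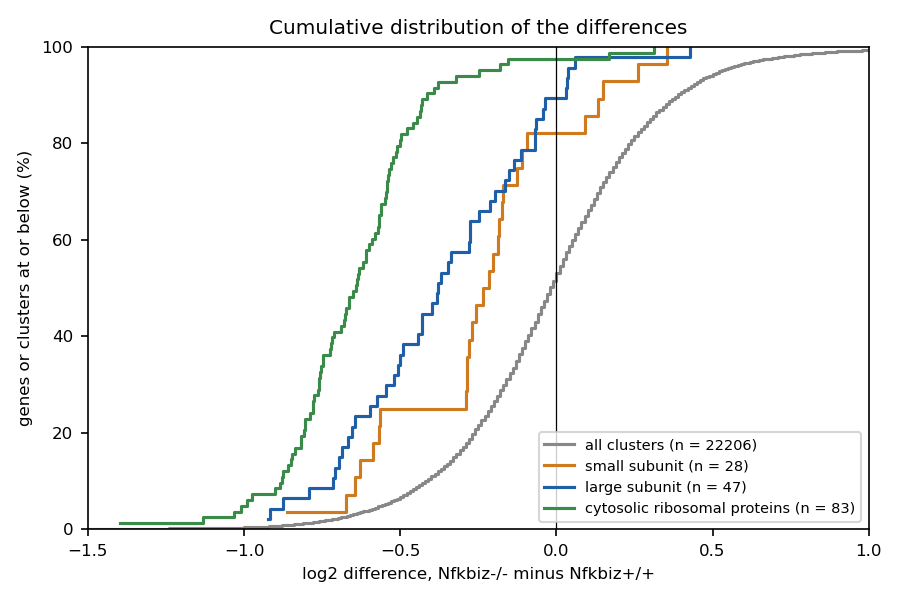
Cumulative percentage of genes or clusters (vertical axis) at or below each log2 difference between genotypes (horizontal axis). The curves of the 47 large and 28 small subunit genes, with medians of -0.38 and -0.23, lie between that of all 22206 clusters (-0.02) and that of the 83 cytosolic ribosomal protein genes (-0.64).

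The genes at the top of each subunit were not called. Mrpl1, whose bacterial homologue forms the stalk beside the tRNA exit site, read 5.19 and 5.28 in M47 and M49 against 4.67 and 4.95 in M30 and M55. Here the Nfkbiz-/- mice were the higher ones, without overlap (difference 0.43, SE 0.21). Mrps18b, 1 of 3 mouse homologues of bacterial S18, read 6.06, 6.37, 5.66 and 6.06, and Mrps9 read 6.36, 5.99, 5.96 and 5.87, for differences of 0.35 and 0.26. Mrps11 (0.15), Mrpl45 (0.06), which in human mitochondria tethers the ribosome to the inner membrane, and Mrpl2 (0.04) lay near 0.

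Members known for a particular role or place were spread over the range. Mrps18a and Mrps30 carry small subunit names but sit in the large subunit, and they differed by -0.22 and -0.09, while Mrps18c, the other S18 homologue, differed by -0.27. Mrps12, the homologue of the bacterial decoding centre protein S12, differed by -0.18, and Mrps27, a pentatricopeptide repeat protein, by 0.13. Genes in which human mutations cause mitochondrial disease gave -0.28 (Mrpl3), -0.15 (Mrpl44), -0.57 (Mrps16), -0.29 (Mrps22) and -0.17 (Mrps34). Mrpl41 gave -0.11, and Mrps36, now known better as a component of the oxoglutarate dehydrogenase complex, gave -0.20. Mrps16 read 5.73, 5.01, 6.03 and 5.84 in M47, M49, M30 and M55, without overlap, yet it was not called. The genes with the highest array signal, Mrpl17 (-0.20), Mrps23 (-0.67) and Mrpl48 (-0.51), and those with the lowest, Mrpl22 (-0.71), Mrps22 (-0.29) and Mrpl16 (-0.28), lay across the range as well.

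The Nfkbiz+/+ mice differed from each other along the same genes. Of the 75 genes, 48 were higher in M55 than in M30, by a median of 0.17 over all 75, where the median over all clusters was -0.01. Between M49 and M47 the median was -0.02. After each gene was centred on its mean, the median of the large subunit was -0.18 and -0.20 in M47 and M49 against 0.12 and 0.25 in M30 and M55, and that of the small subunit was -0.12, -0.14, 0.04 and 0.18. Both Nfkbiz+/+ mice thus stood above both Nfkbiz-/- mice in each subunit, M30 by less. Against M30 alone the median difference was -0.34 for the large and -0.14 for the small subunit, and against M55 alone -0.39 and -0.29. In all, 57 of the 75 genes lay below 0 against either mouse.

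**Figure D4:**
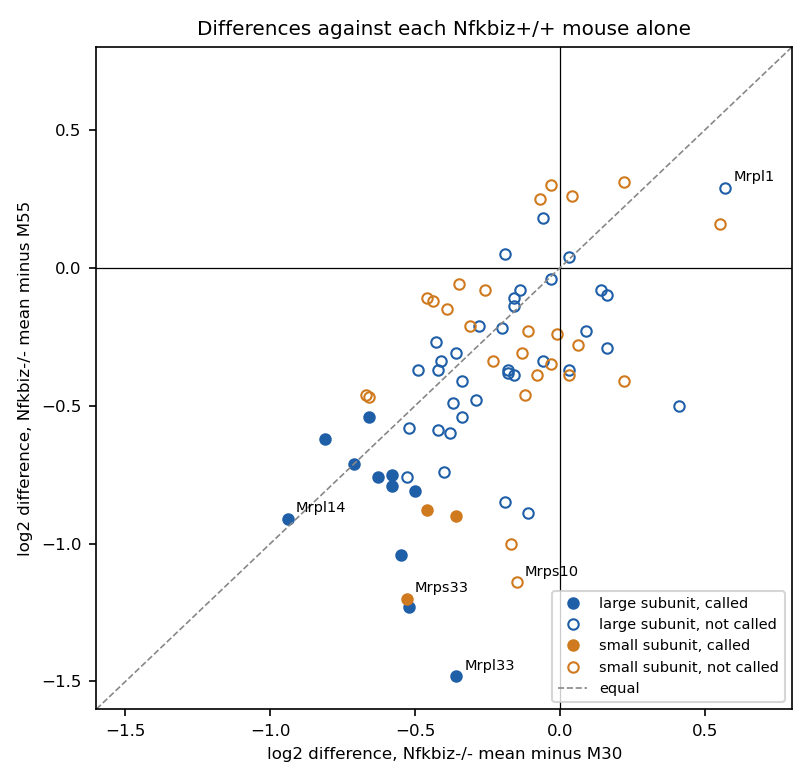
Log2 difference of each of the 75 genes when the Nfkbiz-/- mean is set against M30 alone (horizontal axis) and against M55 alone (vertical axis). Most points lie below 0 on both axes (57 of 75), Mrpl14 lies near the dashed line of equal differences, and Mrpl33 and Mrps33 lie far below it.

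The calls themselves depended on single mice. With M47 left out, 11 genes were called lower (2.74% of clusters), 8 of them among the 14 of the full comparison. With M49 left out there were 5 (2.42%), 4 of them among the 14, and with M30 left out 19 (7.14%), 13 of them among the 14. With M55 left out there were 6 (4.32%), 5 of them among the 14.

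Other parts of the mitochondrial translation apparatus were counted in the same fit. A further 6 proteins of the mitochondrial ribosome carry other symbols, and 2 of these genes were called lower (against 3.69% of clusters), 0 when M55 or M47 was left out and 0 by either form of the methods' t-test. Aurkaip1, a small subunit protein first described as a partner of Aurora A kinase, read 5.96 and 6.35 in M47 and M49 against 6.71 and 6.81 in M30 and M55 (difference -0.61). Chchd1, also of the small subunit, read 4.20, 4.42, 4.73 and 5.13 (difference -0.62). The GTP-binding Dap3 (-0.40), Gadd45gip1 (-0.22), the peptidyl-tRNA hydrolase Ict1 (-0.10) and Ptcd3 (0.19) were not called.

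Genes that work around the ribosome were counted in 4 lists, to be read beside the 3.69% of all clusters called lower. None of 27 assembly factors was called (median -0.06), among them C1qbp (-0.48), Ybey (-0.47) and Mettl17 (0.56, with 7.12, 7.22, 6.40 and 6.82 in M47, M49, M30 and M55). Of 16 translation factors 1 was called lower (median -0.21): the initiation factor Mtif3 read 4.32, 4.17, 4.89 and 5.09, a difference of -0.74, and was not called without M49. The other initiation factor, Mtif2, differed by -0.57 and the RNA-binding Slirp by -0.92, but neither was called, and for Slirp M49 stood above M30. None of 20 genes for charging mitochondrial tRNAs was called (median -0.07; Gatb -0.45, Wars2 0.33). Of 11 genes that copy or transcribe mitochondrial DNA, 1 was called lower (median -0.28), the helicase Twinkle, listed as Peo1 (-0.69), whose call was lost without M49, M30 or M55, while the single-strand binding protein Ssbp1 (-0.60) and the nuclease Mgme1 (-0.49) were not.

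The cytosolic ribosomal protein genes, which build the ribosome outside the mitochondria, lay lower still. Of 83 such genes 48 were called lower (57.8%, against 3.69% of all clusters) and 0 higher (against 2.93%), with a median of -0.64. The count was 24 without M55, 22 without M47, 33 without M49 and 65 without M30. Their centred medians, -0.36 and -0.29 in M47 and M49 against 0.17 and 0.48 in M30 and M55, ran in the same order of genotypes as those of the mitochondrial genes, with M55 highest again. The median was -0.50 without M55 and -0.80 without M30. The 2 sets share the same 4 arrays, so their medians stand side by side here without a test of likeness.

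The control regions of the members are shown because these genes lie on 17 chromosomes and have no common neighbourhood. RefSeq windows of GRCm38.p6, from 250 bases before to 50 after the start of the gene, were at hand for 66 of the 75 genes and for 13 of the 14 called. Short motifs were searched on both strands: CCGGAAG for ETS factors such as GABPA, GCATGCG for NRF1, AAGATGG for YY1, TGACGT for CRE-binding factors, GGGCGG for SP1 and TATAAA for the TATA box. The ETS motif was in 23 of 66 windows (34.8%, against 9.12% of 27025 windows of all genes and 11.9% of those of protein-coding genes). It was in 8 of the 13 called genes and in 15 of the 53 others. Only 3 of those 8 hold it wholly within the 250 bases before the start. In Mrpl33, Mrpl57, Mrps21, Mrps23 and Mrps33 the match reached into the 50 bases after it. Among the 15 others that was so in Mrpl21, Mrps12 and Mrps18b. The NRF1 motif was in 8 windows (12.1%, against 3.64%), 2 of the 13 called genes and 6 of the 53 others. The other motifs were rarer in called genes. The YY1 motif was in 13 windows (19.7%, against 6.48%), 1 called and 12 others. The TATA box was in 4 (6.06%, against 14.2%), 0 called and 4 others. SP1 motifs were in 33 of 66 windows (against 35.9% of all and 46.3% of protein-coding genes), 5 called and 28 others. CRE motifs were in 8 of 66 (12.1%, against 7.64%), 1 called and 7 others. The median count of CG was 21 in members' windows, called or not, 7 in all windows and 13 in those of protein-coding genes. The ETS, NRF1, CRE and SP1 motifs hold a CG themselves. A match describes letters in a window and shows no binding, and no link between motifs and differences was tested. The 250 bases before the start are printed for the 3 called genes that hold an ETS motif there. They are also printed for Mrpl33 and Mrps23, called genes with an NRF1 and a CRE motif there, whose ETS match lies outside these bases. Mrpl32 (-0.28, not called) is printed as the gene with the most NRF1 motifs. Capitals mark the matches to the ETS, NRF1, YY1 and CRE motifs, and where an NRF1 motif matches on both strands the 2 matches overlap:
Mrpl51 (chr6:125191950-125192199, plus strand): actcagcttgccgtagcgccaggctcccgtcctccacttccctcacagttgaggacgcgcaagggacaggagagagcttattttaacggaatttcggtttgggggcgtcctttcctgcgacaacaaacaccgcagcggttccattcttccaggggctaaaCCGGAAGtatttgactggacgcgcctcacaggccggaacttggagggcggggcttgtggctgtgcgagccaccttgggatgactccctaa
Mrpl22 (chr11:58171414-58171663, plus strand): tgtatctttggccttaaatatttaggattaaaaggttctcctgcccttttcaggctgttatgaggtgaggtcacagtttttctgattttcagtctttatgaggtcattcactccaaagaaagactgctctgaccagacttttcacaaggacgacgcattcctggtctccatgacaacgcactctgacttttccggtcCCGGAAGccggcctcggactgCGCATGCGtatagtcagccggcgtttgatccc
Mrpl27 (chr11:94653541-94653790, plus strand): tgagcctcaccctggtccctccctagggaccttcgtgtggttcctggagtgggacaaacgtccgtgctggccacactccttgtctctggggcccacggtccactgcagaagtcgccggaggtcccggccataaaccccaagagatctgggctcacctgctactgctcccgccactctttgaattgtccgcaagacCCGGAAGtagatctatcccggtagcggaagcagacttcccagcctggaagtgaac
Mrpl33 (chr5:31613701-31613950, plus strand): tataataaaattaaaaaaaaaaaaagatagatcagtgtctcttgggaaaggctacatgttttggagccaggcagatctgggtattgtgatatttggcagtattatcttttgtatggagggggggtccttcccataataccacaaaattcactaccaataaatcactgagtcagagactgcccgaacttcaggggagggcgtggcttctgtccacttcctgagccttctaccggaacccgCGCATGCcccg
Mrps23 (chr11:88204138-88204387, plus strand): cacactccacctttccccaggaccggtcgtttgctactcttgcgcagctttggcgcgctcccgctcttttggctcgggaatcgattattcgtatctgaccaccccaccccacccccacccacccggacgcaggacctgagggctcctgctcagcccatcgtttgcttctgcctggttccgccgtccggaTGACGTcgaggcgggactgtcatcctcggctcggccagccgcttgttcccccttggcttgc
Mrpl32 (chr13:14613038-14613287, minus strand): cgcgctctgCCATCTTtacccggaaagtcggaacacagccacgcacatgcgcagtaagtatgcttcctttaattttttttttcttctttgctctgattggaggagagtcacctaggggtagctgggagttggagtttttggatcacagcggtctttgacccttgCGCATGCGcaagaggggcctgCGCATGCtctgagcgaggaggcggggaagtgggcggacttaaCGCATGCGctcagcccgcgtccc
The ETS motif begins 90 bases before the start of Mrpl51, 53 before that of Mrpl22 and 55 before that of Mrpl27. Mrpl22 also has an NRF1 motif that begins 32 bases before the start. The NRF1 motif of Mrpl33 begins 11 bases before and the CRE motif of Mrps23 61 bases before. Those of Mrpl32 begin 86, 65 and 23 bases before, and its first capitals are a YY1 motif. The lowest gene, Mrpl14, held none of these 4 motifs in its 250 bases before the start.

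GABPA, which binds the ETS motif, and the other regulators of nuclear genes for mitochondria were on the array too, and none of these 10 genes was called (median 0.01). Gabpa read 6.92 and 7.0 in M47 and M49 against 7.36 and 7.38 in M30 and M55. The groups did not overlap, with a difference of -0.41 (SE 0.20). Both Nfkbiz-/- mice were below both Nfkbiz+/+ mice in 4 of the 10 genes, against 21.5% of all clusters. The opposite order held in 3 of the 10, against 18.2%. Gabpb1 differed by -0.06. The coactivator Ppargc1a read 10.03, 10.28, 7.65 and 10.37, so M30 alone stood apart, and the difference of 1.15 was -0.21 without it. The related coactivator Pprc1 differed by 0.34.

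Many members share a start region with a neighbour. In the deposited annotation 30 of the 75 genes (40.0%) began within 1000 bases of a gene on the opposite strand, against 11.1% of 21881 gene symbols, and 7 of the 14 called genes did. In 28 pairs of a member with another gene, the members' median difference was -0.24 and that of their neighbours -0.02, with 15 of 28 neighbours below 0. Mrpl14 (-0.92) began 583 bases from Tmem63b, which differed by 0.45, and Mrpl30 (-0.60) began 66 bases from Mitd1, at 0.65. Mrpl51 (-0.79) began 206 bases from Ncapd2, at 0.27. Mrpl47 (-0.57) and the respiratory chain gene Ndufb5 (-0.88), 157 bases apart, lay below 0 together, and so did Mrpl43 (-0.44) and Peo1 (-0.69), 750 bases apart. In the pair made of 2 members, Mrpl46 and Mrps11, 412 bases apart, the first differed by -0.37 and the second by 0.15.

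The differences were also set against the signal and the length of the genes. Across the 75 genes, which share their 4 arrays, Spearman's rho of the difference was 0.10 with the mean level and 0.07 with the length of the gene on the chromosome, against -0.01 and 0.12 over all clusters. The median length was 8.79 kb for called genes and 7.14 kb for the others.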

How the data were processed

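RNA of the salivary glands of 4 mice was labelled with the WT PLUS kit and hybridized to Affymetrix whole-transcript arrays. The authors deposited gene-level log2 values that span 0.904 to 13.3 and were made with Affymetrix Power Tools by RMA, which corrects background, equalizes the distributions of the arrays and summarizes probes per gene. Which version of the annotation was used is not stated in the paper, labels or files. Both deposited tables hold the same values. Columns with the authors' own fold changes and p-values, and their GO and KEGG tables, were not used.

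Mice were grouped by their genotype labels. The log2 values of all 22206 clusters were compared in limma 3.58.1 (R 4.3.3; lmFit, then eBayes), with differences given as Nfkbiz-/- minus Nfkbiz+/+ (2 residual and 5.53 prior degrees of freedom), after the fit had been tested on simulated data. The paper's methods name t-tests, which were run as alternatives. Nothing says that the 2 mice of a genotype came from separate litters, so p-values measure the spread between these mice only. The number of arrays limits the precision. SE is that of limma.

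Cytosolic ribosomal protein genes were symbols beginning with Rpl or Rps and a number, kinases and pseudogenes aside. Large subunit genes with a bacterial homologue were taken from a list drawn up by hand. Marker genes were summed on the linear scale. Motifs and neighbouring starts were counted with pandas 2.3.3 in Python 3.11.15, on RefSeq promoters of GRCm38.p6 with 1 window per gene. The motif for NRF1 was shortened after a longer form had been counted. RefSeq has 78 protein-coding Mrpl and Mrps symbols, of which Mrpl58 is listed on the array as Ict1, and Mrpl53 and Mrps6 were not analysed here.

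The members and lists were chosen with earlier results of these data known. Genes were named by rule: every called member, the 3 highest and 3 lowest of each subunit, the 3 brightest and 3 dimmest, a fixed set of roles, all other ribosomal proteins of the mitochondrion, and up to 3 per further list by the moderated statistic, of which 1 is not reported here. Mrps24, Mrpl32, Mrpl43, Mrpl46, Mrpl47 and the neighbouring genes were named after their values were seen. In all 16 alternatives were tried.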

Additional observations from a re-analysis of the deposited data

How the results depend on the processing

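No paired analysis was possible because the labels give the mice of the 2 genotypes no shared replicate numbers. The direction held for both subunits under every alternative, and no mitochondrial ribosomal protein gene was called higher under any, but the counts depended on the test and on single mice. The methods' t-test with equal variances called 5 of the 75 genes lower, 5 of the large and 0 of the small subunit, with 248 clusters lower and 227 higher in the whole table. With unequal variances it called Mrpl22 alone, so 1 large and 0 small subunit genes, with 105 clusters lower and 107 higher, the paper's counts. A fold threshold of 2 left 0 genes called in either subunit, with 70 clusters lower and 130 higher. Brighter clusters alone gave 518 lower and 383 higher, since fewer were tested. Over the whole table, where 820 were called lower and 651 higher, leaving out 1 mouse gave 537 to 1586 lower and 514 to 1104 higher. It gave 5 to 19 genes called lower, 4 to 14 of the large and 1 to 5 of the small subunit, with medians of -0.39 to -0.34 and -0.29 to -0.14. In these fits the lone mouse is assumed to vary as the other genotype does. The median of the large minus that of the small subunit (-0.15) was -0.16 after quantile normalization, -0.12 in brighter clusters, -0.12 with Mrps18a and Mrps30 counted as large, and -0.20 to -0.10 as mice were left out. The cause of these shifts was not tested. Quantile normalization and median centring each lost the call of Mrpl30 alone.

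Among the genes named by rule, signs turned only when 1 mouse was left out. The ranges were -0.06 to 0.18 for Mrpl45, -0.27 to 0.05 for Mrpl41 and -0.39 to 0.03 for Mrps12. They were -0.14 to 0.40 for Mrps27, -0.41 to 0.22 for Mrps30 and -0.64 to 0.23 for Mrps36. Outside the members they were -0.09 to 0.47 for Ptcd3, -0.51 to 0.07 for Gadd45gip1, -0.33 to 0.12 for Ict1 and -0.21 to 2.51 for Ppargc1a. Members not named by rule turned as well, among them Mrpl50, at 0.41 without M55 and -0.50 without M30, and Mrpl4, at 0.16 and -0.29.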
